A study of Homo sapiens with 12 samples.

Results

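GPHN encodes gephyrin, and the data described here are the H3K9me3 peaks over this gene and over 1 Mb on each side of it on chromosome 14 of human 293T cells. The gene's extent was taken from the transcripts to which the authors assigned GPHN peaks (ENSG00000171723, plus strand, hg38 chr14:66509059-67181792, 672734 bp). Members were all peaks that they assigned to GPHN or that overlapped this extent, together with all peaks of the adjoining 1 Mb windows. This gave 224 of the 112068 peaks in the data, which were 89 of 46898 peaks in the wild-type list and 135 of 65170 in the knockout list. Within the gene lay 44 wild-type (WT) and 74 knockout (KO) peaks. The lower flank, on the side of the gene's start, held 24 and 28 peaks, and the upper flank, beyond its end, held 21 and 33. GPHN was chosen because it stood among the coding genes with the most peaks found in KO alone, so its KO counts were high by choice and are given as a description, with no test.

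H3K9me3, histone H3 trimethylated at lysine 9, was mapped in WT 293T cells and in 293T cells labelled SMARCA3_KO. 293T is a line derived from human embryonic kidney, and SMARCA3, now called HLTF, belongs to the SWI/SNF family of DNA translocases and carries a RING domain. Chromatin was precipitated with a rabbit antibody against H3K9me3 and sequenced in 3 ChIP libraries of each genotype, beside 3 input libraries of each, which the labels call biological triplicates. No treatment or time point is labelled, and the labels do not say whether the knockout was 1 clone or a pool. The deposited data are 1 peak list per genotype, with no value for a single library. The spread between replicates could therefore not be measured, the depth is unknown, no p-value between genotypes was computed, and a peak list does not show whether SMARCA3 was lost. Each peak carries the authors' fold enrichment, read here as ChIP signal over background at the peak, and their q-value, the adjusted p of the peak within its own list. Covered bases are the bases of a stretch that lie under a peak, and ratios are KO over WT.

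Gephyrin is the scaffold protein that holds glycine receptors and many GABA-A receptors at inhibitory synapses. The same protein is an enzyme, since its domains carry out the last steps of molybdenum cofactor synthesis, also outside the nervous system. H3K9me3 is the histone mark of constitutive heterochromatin, silenced repeats and clustered zinc-finger genes, and at most genes in use it is absent from the promoter.

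The promoter window of GPHN met no peak in either list, and its sequence is shown first. Beside it stands the nearest to a KO peak of the region's other promoter windows read here, which do not cover every gene. Both come from RefSeq on GRCh38.p14, run from 250 bases before to 50 bases after the start on the plus strand, and have each CG dinucleotide in capitals. They are chr14:66507897-66508196 for GPHN and chr14:66111381-66111680 for LINC02290, a long noncoding RNA of the lower flank.
GPHN: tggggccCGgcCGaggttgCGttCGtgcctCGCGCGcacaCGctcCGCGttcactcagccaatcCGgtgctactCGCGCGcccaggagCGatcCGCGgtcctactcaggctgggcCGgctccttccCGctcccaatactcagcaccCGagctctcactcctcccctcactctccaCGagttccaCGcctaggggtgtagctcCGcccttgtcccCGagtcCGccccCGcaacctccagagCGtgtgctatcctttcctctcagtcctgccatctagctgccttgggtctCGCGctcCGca
LINC02290: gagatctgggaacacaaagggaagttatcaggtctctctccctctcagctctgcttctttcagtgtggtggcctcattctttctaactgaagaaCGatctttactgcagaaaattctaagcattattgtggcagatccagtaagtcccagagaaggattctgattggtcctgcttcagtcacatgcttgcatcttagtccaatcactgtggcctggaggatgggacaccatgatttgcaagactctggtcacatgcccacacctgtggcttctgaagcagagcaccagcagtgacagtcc
The GPHN window held 30 CG dinucleotides and a GC content of 67.0%, and 22.4% of the 35114 promoter windows of this length in the table held as many CG or more. The LINC02290 window held 1 CG, against a median of 14 over all windows. Searched on both strands, the GPHN window contained GGGCGG, which overlaps a CG and is found in 45.0% of all windows, and CCAAT, found in 34.6%. It did not contain TATAAA, found in 11.5%. The nearest peak lay 9105 bp from the GPHN window in WT and 8988 bp from it in KO. The nearest KO peak to the LINC02290 window lay 55 bp away, at chr14:66111736-66112085, and the nearest WT peak 78204 bp away. All 20 promoter windows read for the region were free of peaks in both lists. Such windows seldom met a peak anywhere, since 0.245% of all windows met a WT peak and 0.632% a KO peak. The windows that did had a median of 2 CG in each list. The 20 windows of the region leave out several of its genes, PLEKHH1, PIGH, RDH12 and RN7SL706P among them. The authors' annotation put a KO peak in the proximal promoter of RN7SL706P, and it put the KO peak beside LINC02290 in a promoter class.

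Within GPHN the KO list had more peaks and more covered bases than the WT list. The peak ratio was 1.68 (Wilson 95% interval turned into a ratio, 1.16 to 2.44), and the peaks covered 29161 bp of the gene in WT against 53915 bp in KO (ratio 1.85). By comparison, 78.7% of all genes with a peak in both lists had more covered bases in KO. The mark lay over 4.33% of the gene's length in WT and 8.01% in KO. Intervals here cover counting error only and treat peaks as independent, which neighbouring peaks of 1 domain may not be. The whole KO list was also longer, by a ratio of 1.39 in peaks and 1.59 in covered bases on chromosomes 1 to 22, X and Y, and on chromosome 14 these ratios were 1.62 (1.51 to 1.75) and 1.80. The values of GPHN were thus close to those of its own chromosome. With peaks limited to a fold of at least 3.69, the median of both lists, the gene had 28 WT and 33 KO peaks, a ratio of 1.18 (0.716 to 1.94), where the whole lists had 1.08. With the peaks of a list closer than 1 kb joined, it had 30 and 38, a ratio of 1.27 (0.788 to 2.04), where the whole lists had 1.36. Both of these intervals include 1 as well as the ratio of the whole lists. They are no test, since the gene was chosen by its KO-only peaks. How far the calling depth of the lists contributed to these ratios was not tested.

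Median width and fold of the gene's peaks were near those of the whole lists. Median width was 445.5 bp in WT and 478 bp in KO, where the whole lists had 483 and 530 bp. In the gene 6 WT (13.6%) and 13 KO peaks (17.6%) were wider than 1 kb. In the whole lists these shares were 18.0% and 22.7%. Fold enrichment ran from 2.83 to 5.66 with a median of 3.86 in WT, and from 1.99 to 6.32 with a median of 3.66 in KO. The median q-value was 8.89e-07 in WT and 4.89e-08 in KO. KO peaks therefore had the smaller q-values at a slightly lower median fold, and this was so for the whole lists too, with median folds of 3.77 and 3.59 and median q-values of 8.89e-07 and 1.58e-08. The authors' annotation put 44 of 44 WT peaks and 73 of 74 KO peaks in its gene-body class, which does not tell exons from introns. The other KO peak was in the class that reaches 3 kb from a transcript start.

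**Figure D1:**
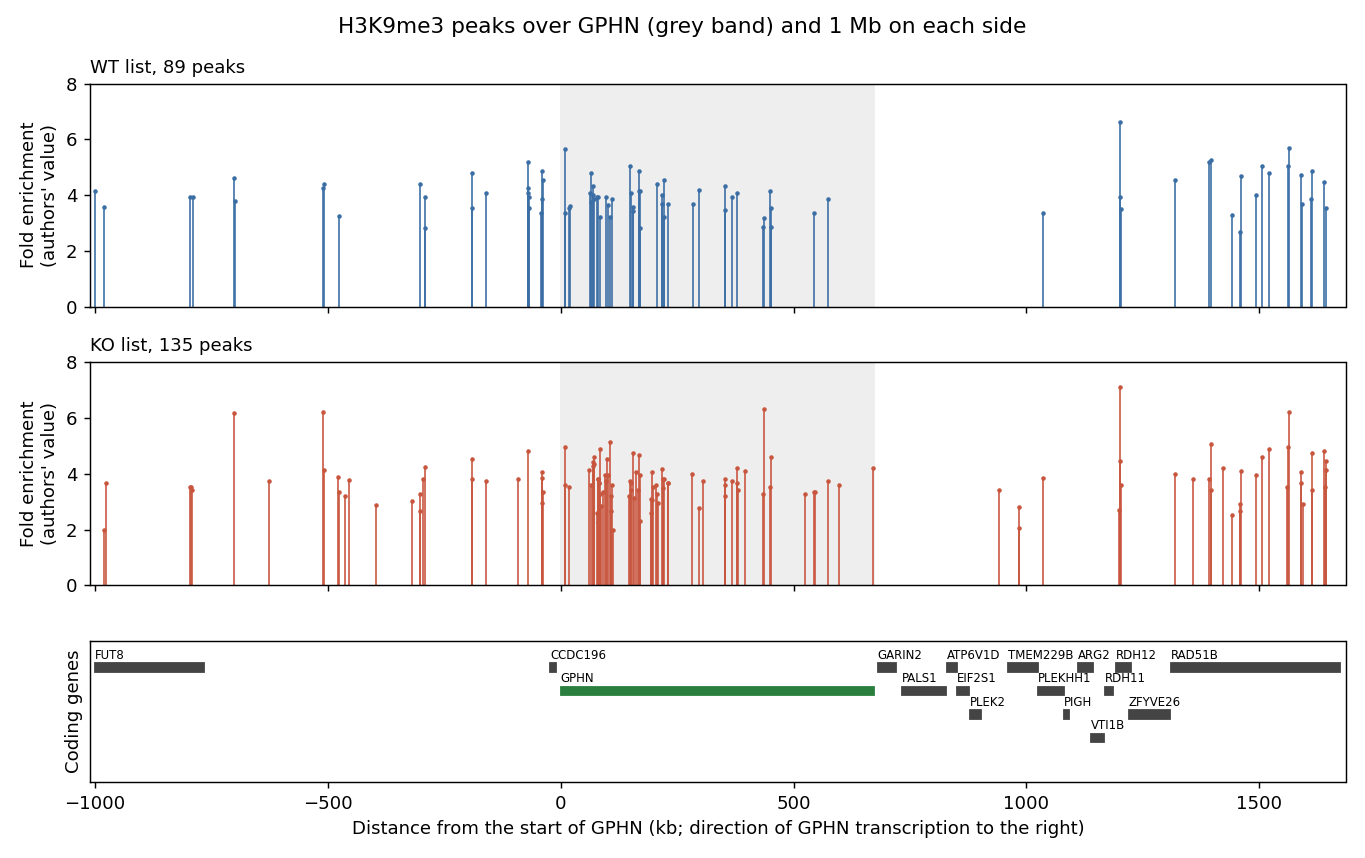
Each stem is 1 peak, placed by its distance in kb from the start of GPHN (x axis) and as tall as the authors' fold enrichment (y axis), for the 89 WT peaks (top) and 135 KO peaks (middle), above the coding genes of the region, as RefSeq draws them except GPHN, which is drawn as in the files. In both lists peaks crowd toward the left end of the grey band that marks GPHN, and the stretch just past the gene's end holds none.

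Peaks clustered toward the start of the gene. The annotation assigned the GPHN peaks to 4 transcripts in a row, and a transcript given no peak would not show in the lists. The first (ENST00000556020, chr14:66509059-66824554) took 33 of the 44 WT and 56 of the 74 KO peaks. Its peaks covered 22860 bp in WT and 42419 bp in KO, or 7.25% and 13.4% of its length. The second (ENST00000555456) took 10 and 15 peaks, the third (ENST00000556501) 1 and 2, and the last (ENST00000556240) 0 and 1. Beyond the first transcript 1.76% of the gene was covered in WT and 3.22% in KO. Peak ratios of both stretches were alike, at 1.70 (1.11 to 2.60) in the first transcript and 1.64 (0.786 to 3.41) beyond it. Density differed along the gene in both genotypes, while the ratio between the lists did not differ beyond these intervals.

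In bins of 50 kb counted from the gene's start, KO had more covered bases in 11 of 14 bins and fewer in 2, and 1 bin was empty in both lists. Over all such bins of the genome with a peak in either list, 76.3% had more covered bases in KO. The largest difference was in the bin from 50 to 100 kb, with 10 WT peaks over 6543 bp and 19 KO peaks over 16228 bp. The bin from 150 to 200 kb had 7 WT peaks over 4638 bp and 14 KO peaks over 10422 bp. The 2 bins with fewer KO bases differed little, with 1571 bp in WT and 1521 bp in KO over the first 50 kb, and 992 bp and 881 bp between 450 and 500 kb. The stretch from 50 to 250 kb makes up 29.7% of the gene and held 75.9% of its difference in covered bases, 18799 of 24754 bp. It held like shares of each list, 69.0% of the WT and 72.2% of the KO bases. Without that stretch, which was chosen after its values were seen, the gene had 17 WT and 24 KO peaks, a ratio of 1.41, and a ratio of 1.66 in bases.

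**Figure D2:**
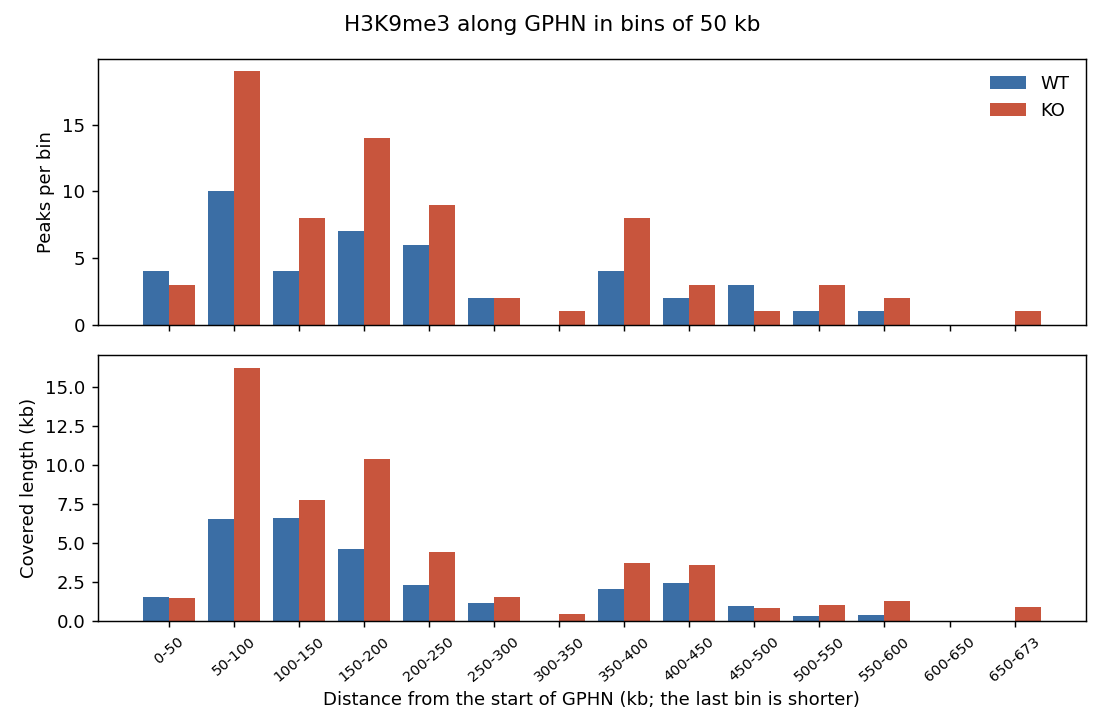
Bars give the number of peaks (top) and the covered length in kb (bottom) in each 50 kb bin along GPHN (x axis, kb from its start), with WT and KO side by side and 1 list per genotype, so without error bars. The tallest KO bars are those from 50 to 100 kb and from 150 to 200 kb, with 19 and 14 peaks, and the bin from 600 to 650 kb is empty in both lists.

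Joining the peaks of both lists that lay within 10 kb of each other gave 16 domains inside the gene, of which 12 held peaks of both genotypes, 4 held KO peaks alone and 0 held WT peaks alone. KO had more covered bases in 15 of them, beside 11 of 16 domains in the lower flank and 13 of 17 in the upper flank. In the flanks 5 and 4 domains held KO peaks alone, and 1 and 0 held WT peaks alone. No share over such domains of the genome was computed, and the whole KO list was longer, so nothing is read from these counts. The longest domain of the gene, at chr14:66570344-66622338 (52.0 kb), held 13 WT peaks that covered 20.1% of it and 25 KO peaks that covered 40.2%. The second by covered bases, at chr14:66655350-66680659 (25.3 kb), held 8 and 11 peaks and was the most densely marked of the long ones, at 29.0% in WT and 44.0% in KO. The domain at chr14:66702434-66740300 (37.9 kb) was thin in WT, with 6 peaks over 6.08% of its length, and held 14 KO peaks over 18.1%. The domain nearest the gene's start, at chr14:66517185-66528645, went the other way by a small amount, with 4 WT peaks over 1571 bp and 3 KO peaks over 1521 bp. The 4 domains of KO alone in the gene were single peaks of 271 to 908 bp.

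Most WT peaks of the gene touched a KO peak, though a minority did so over at least 50% of both peaks. Of the 44 WT peaks, 37 (84.1%, Wilson 95% interval 70.6 to 92.1) overlapped a KO peak by at least 1 bp, and 7 did not. With an overlap of at least 50% of each peak required, 19 (43.2%, 29.7 to 57.8) did. Of the 74 KO peaks, 33 (44.6%, 33.8 to 55.9) overlapped a WT peak and 41 did not. Those 41 are 55.4% (44.1 to 66.2) of the gene's KO peaks, where 49.4% of KO peaks in the genome met no WT peak. On chromosome 14 this share was 56.2% (53.9 to 58.4). The 7 WT-only peaks are 15.9% (7.93 to 29.4) of the gene's WT peaks, beside 20.1% in the genome and 19.7% on chromosome 14. Nothing is read from the KO-only share, because the gene was chosen by it.

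Most of the gene's 41 KO-only peaks, by which it was chosen, lay within 5 kb of a WT peak. Their median distance to the nearest WT peak was 1269 bp (quartiles 373 and 5710 bp), and 18 lay within 1 kb, 29 (70.7%) within 5 kb and 35 (85.4%) within 10 kb. For all KO-only peaks of the genome the median was 7459.5 bp, with 45.1% within 5 kb. Those regions were not matched to the gene for their density of WT peaks, so nothing is read from the difference. KO-only peaks were also small, with a median width of 407 bp and a median fold of 3.51 (highest 4.36), where the KO peaks that met a WT peak had medians of 715 bp and 3.97. The 3 widest KO-only peaks were 1043 bp wide at 151.5 kb from the start (fold 3.43, 132 bp from a WT peak), 910 bp at 166.6 kb (fold 3.43, 792 bp) and 908 bp at 669.8 kb (fold 4.21, 95841 bp). The last of these, at chr14:67178381-67179288, stood alone at the far end of the gene. It lay 2015 bp before the start of the last transcript to which a GPHN peak was assigned. The 7 WT-only peaks lay at a median of 440 bp and at most 1415 bp from a KO peak. The widest of them were 591 bp wide at 97.8 kb (fold 3.93), 433 bp at 206.0 kb (fold 4.40) and 430 bp at 367.4 kb (fold 3.93).

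Where both lists had a peak, the KO peak was more often the wider one, while fold was split almost evenly. Overlapping peaks of the lists formed 30 loci in the gene, and 26 of them (86.7%) had more bases in KO and 4 had fewer, where these shares were 71.3% and 28.6% of the 29453 such loci in the genome. Median bases per locus were 634 bp in WT and 864.5 bp in KO, and the median ratio was 1.27 (range 0.532 to 3.67), beside 1.22 in the genome. The highest fold of the locus was higher in KO at 13 loci and lower at 17, with a median difference of -0.025 (KO minus WT), where it was higher in KO at 52.6% of loci in the genome. The q-value was lower in KO at 26 loci (86.7%), against a share of 81.2% in the genome. At 6 loci of the gene 1 KO peak overlapped 2 neighbouring WT peaks, and at 2 loci KO had more peaks than WT. Of the 29453 loci in the genome, 4968 had fewer KO than WT peaks and 1873 had more. The flanks had 12 loci, 8 with more and 3 with fewer KO bases, and 20 loci, 15 with more and 5 with fewer.

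The highest KO peak of the gene stood at chr14:66943335-66946206, 435.7 kb from its start, with a fold of 6.32, a q-value of 2.01e-35 and a width of 2872 bp. In WT the same place held 2 peaks that covered 2384 bp, and the higher of them had a fold of 3.19. This was the largest difference in fold among the 30 loci. The place was picked by its KO fold, so a lower WT value there can follow from that choice alone. At 106.0 kb a WT peak of 287 bp and fold 3.21 faced a KO peak of 636 bp and fold 5.13, and at 84.2 kb a WT peak of 348 bp and fold 3.22 faced a KO peak of 1277 bp and fold 4.90. The widest KO peak, 3160 bp at chr14:66573479-66576638, spanned 2 WT peaks of 1363 bp together but was lower, at a fold of 3.61 against 4.79.

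The 3 highest WT peaks of the gene each had a lower fold in KO. They were picked by their WT fold, so lower KO values there can follow from that choice alone. Over all 30 loci of the gene the median difference in fold was -0.025 (KO minus WT). The first peak of the gene, 8.6 kb from its start, had the highest WT fold, 5.66 over 655 bp at chr14:66517302-66517956, and 4.98 over 864 bp in KO. The second highest WT peak was also the widest, with a fold of 5.03 over 2705 bp at chr14:66655786-66658490, where KO had 3.75 over 2770 bp. The third, at 168.2 kb, had a fold of 4.87 and the KO peak over it 4.67. The other wide WT peaks were 2196 bp wide at 100.7 kb (fold 3.66), where KO had 2 peaks of 1846 bp together with a fold up to 4.51, and 1880 bp wide at 109.2 kb (fold 3.88), where KO had 1962 bp at a fold of 2.65. At 150.6 kb, the locus with the lowest ratio of KO to WT bases (0.532), KO had 312 bp at a fold of 3.66 and WT 587 bp at 4.09.

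**Figure D3:**
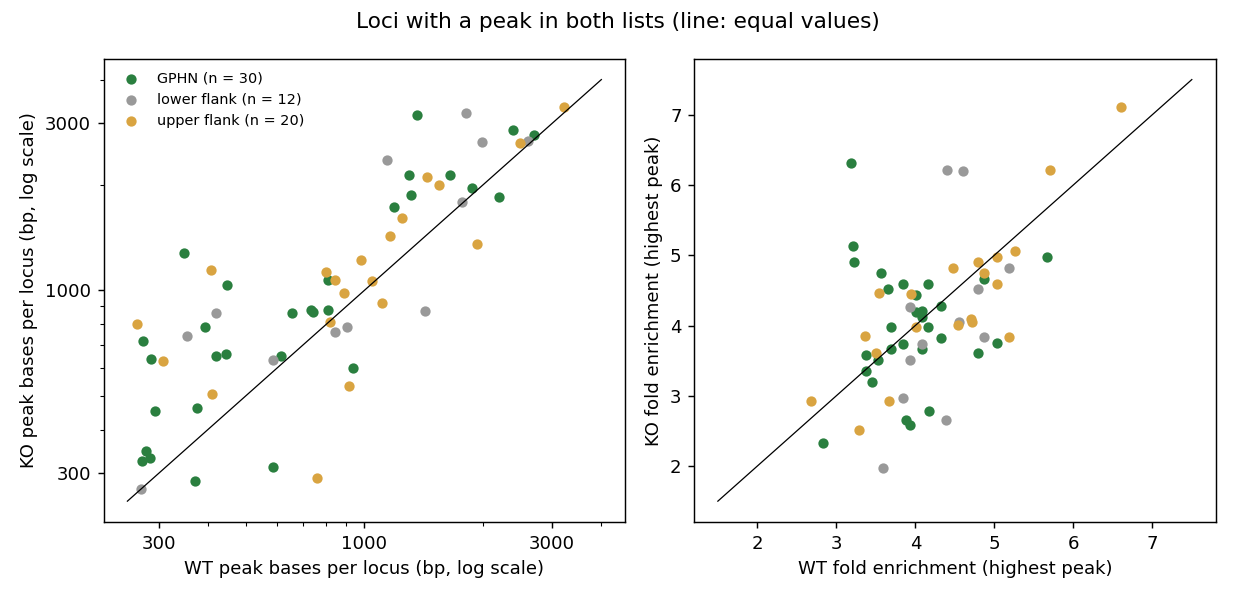
Each point is a locus with a peak in both lists, in GPHN (30), the lower flank (12) or the upper flank (20), with WT on the x axis and KO on the y axis, for covered bases in bp on log axes (left) and the highest fold enrichment (right). On the left, 26 of the 30 GPHN points lie above the line of equal values, while on the right they lie on both sides of it (13 above, 17 below).

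The last peaks called in the gene lay at different points in the 2 lists. Depth is unknown, so these points do not show where the mark ends. The last WT peak of GPHN was at chr14:67082120-67082539, 99253 bp before the gene's end, and the last KO peak ended 2504 bp before it. Past the gene the first WT peak lay 362586 bp on, in PLEKHH1, and the first KO peak 268966 bp on, assigned to TMEM229B. Between chr14:67179289 and chr14:67450758, 271470 bp were free of peaks in both lists, the longest such stretch of the region. It holds 5 coding genes, among them PALS1, a cell polarity scaffold, ATP6V1D, a subunit of the vacuolar proton pump, and EIF2S1, the alpha subunit of the translation factor eIF2. RefSeq draws a longer GPHN (chr14:66508147-67735355, 1227209 bp) that runs across these genes, and over it the lists had 48 and 82 peaks, a ratio of 1.71. On the other side, the last peak before the gene lay 38164 bp below its start in WT and 38244 bp in KO, both assigned to CCDC196.

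The flanks were more thinly marked than the gene in both lists. The lower flank was covered over 1.64% of its length in WT and 2.32% in KO, and the upper flank over 2.31% and 2.97%, where the gene had 4.33% and 8.01%. The lower flank had a peak ratio of 1.17 (0.681 to 2.00) and a base ratio of 1.42, and the upper flank 1.57 (0.915 to 2.70) and 1.29. These intervals overlap that of GPHN (1.16 to 2.44), and the difference itself was not tested. In lists of equal length, with the KO list limited to its best q-values, the gene had 44 and 54 peaks, a ratio of 1.23 (0.826 to 1.82). Under the same limit the upper flank had 21 and 27 peaks, a ratio of 1.29 (0.732 to 2.26), and the lower flank 24 and 19, a ratio of 0.792 (0.437 to 1.43). These intervals overlap, each includes 1, and none of them is a test. Of 16 coding genes in the flanks, 5 had a peak over their RefSeq body in either list and 11 had none. By assigned name, a different rule, 20.6% of all coding genes were marked in WT and 23.4% in KO. No share of all coding genes by RefSeq body was computed, so the flank counts are not read as high or low.

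RAD51B, a DNA repair gene, held most of the upper flank's peaks, with 16 in WT over 19617 bp and 23 in KO over 23224 bp inside the window. RDH12, a retinol dehydrogenase of photoreceptors, had the tallest peaks of the whole region, with folds of 6.61 in WT and 7.11 in KO, and 2 and 3 peaks. TMEM229B had 0 WT and 3 KO peaks over 1538 bp, of folds 2.04 to 3.40. PLEKHH1 had 1 peak in each list, of 308 bp in WT and 629 bp in KO. The pseudogenes RPL21P9 and RN7SL706P had 1 and 1 and 1 and 2 peaks. KO bases were the higher in each of these genes, with base ratios of 1.05 to 3.01 where WT had any.

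Of the genes to which peaks of the lower flank were assigned, only CCDC196 had fewer covered bases in KO, and by little. CCDC196 had 9 WT and 6 KO peaks over nearly the same length, 5001 and 4912 bp, although none lay over its RefSeq body. FUT8, the enzyme that adds core fucose to glycoproteins, had 3 and 4 peaks over 1953 and 2090 bp within the window, which ends inside it. The noncoding AL391261.2 had 2 peaks in each list, over 1139 bp in WT and 2716 bp in KO, with its highest fold 4.40 in WT and 6.21 in KO. AL359232.1 had 5 peaks in each, over 3821 and 5040 bp. EIF1AXP2, a pseudogene, had 1 peak in each, of 354 bp and fold 3.59 in WT and of 741 bp and fold 1.98 in KO. AL391261.1 and LINC02290 each had 0 WT peaks and 1 KO peak, of 329 and 350 bp.

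At the outer limits of the flanks, 1 WT peak lay across the lower limit (fold 4.16, in FUT8), and the nearest peaks left out there were 1229 bp away in WT and 1116 bp in KO. Beyond the upper limit they were 120492 and 40162 bp away, both in RAD51B. By KO-only peaks, the measure of choice, GPHN ranked 7 of 5038 coding genes with a peak in either list, with 41, where ZNF98 had 42 and ZNF675, next below, had 39. By KO minus WT covered bases it ranked 4 with 24754 bp, between NCAM2 (27203 bp) and NKAIN2 (24609 bp).

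GPHN was set beside long genes that carried the mark in both lists. There were 196 coding genes of at least 200 kb with at least 10 peaks in each list, GPHN included, and 67.3% of them had more KO peaks and 92.3% more KO bases. Their median peak ratio was 1.17 (quartiles 1.00 and 1.37) and their median base ratio 1.37 (1.18 and 1.68), beside 1.68 and 1.85 in GPHN. GPHN had 6.54 peaks per 100 kb in WT, rank 17 of 196, and 11.0 in KO, rank 6. By peak ratio it ranked 18 and by base ratio 28, while by KO minus WT peaks (30) and by KO minus WT bases it ranked 1. These ranks describe the lists and follow in part from the choice of the gene.

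The genes whose pattern was nearest to GPHN were found by distance over 2 values, the log2 peaks per 100 kb in WT and in KO. The nearest was NDUFAF2, an assembly factor of mitochondrial complex I, with 16 and 23 peaks (7.70 and 11.1 per 100 kb, distance 0.24). It was followed by CCDC178 (39 and 45 peaks, distance 0.39), SLC35F3 (28 and 35, 0.40), LMBR1 (18 and 20, 0.46) and WDR27 (22 and 23, 0.51). All 5 had smaller peak ratios than GPHN, from 1.05 to 1.44. GPHN was chosen by its KO-only peaks and these 5 were not, so its higher ratio follows in part from that choice. The peak ratio of the whole of chromosome 14 was 1.62. The reference genes with more peaks than GPHN in both lists were PCDH9, a protocadherin (114 and 136, ratio 1.19), GPC5, a glypican (103 and 90, 0.874), and CNTNAP2, a neurexin family protein (70 and 80, 1.14). DSCAM, a cell adhesion molecule on chromosome 21, had 2 WT and 111 KO peaks and so entered no ratio here.

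**Figure D4:**
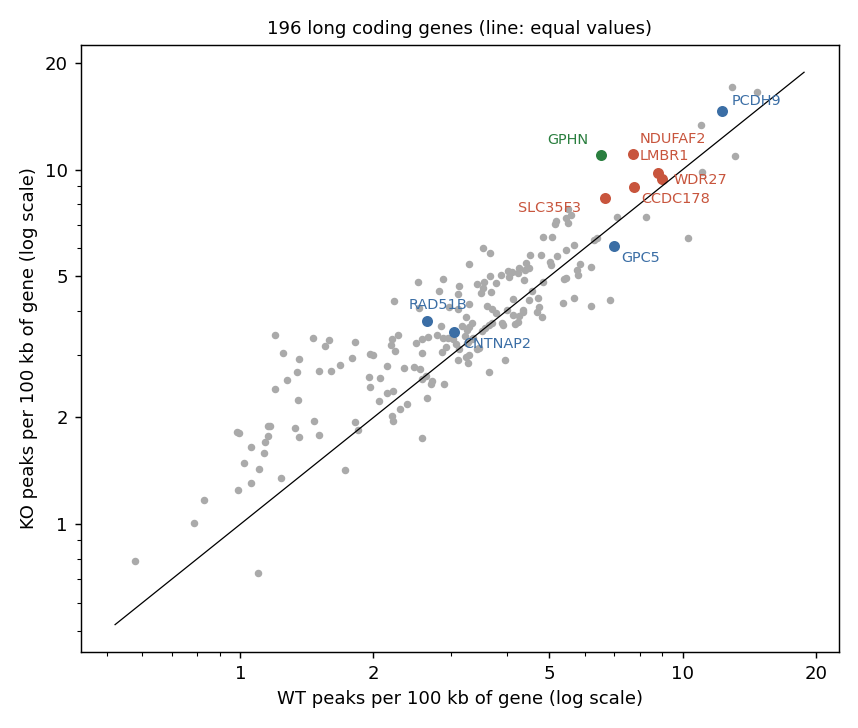
Each point is 1 of 196 long coding genes, placed by its peaks per 100 kb in WT (x axis) and KO (y axis), both on log scales, with GPHN in green, the 5 genes nearest to it in red and 4 other genes named in the text in blue. GPHN stands at 6.54 and 11.0, above the line of equal values and above its 5 nearest genes in ratio. It was chosen by its KO-only peaks, and those 5 genes were not.

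The partners of gephyrin were mostly unmarked. Of 41 genes of inhibitory receptors and gephyrin-binding proteins, 8 (19.5%, 10.2 to 34.0) carried a peak in WT and 11 (26.8%, 15.7 to 41.9) in KO, where 20.6% and 23.4% of all coding genes had one. These shares were near those of all coding genes. Covered bases were higher in KO in 8 of the 11 and lower in 3, and over the 8 with a peak in both lists the median base ratio was 1.24, where 3957 coding genes had a median of 1.39. GLRA1, the glycine receptor subunit of adult spinal synapses, had 5 peaks over 2271 bp in WT and 7 over 5490 bp in KO. KIF5C, a kinesin motor, had 4 in each over 3911 and 5197 bp, and PFN2, an actin-binding profilin, had 3 over 2380 bp and 1 over 1168 bp. GLRB, the glycine receptor subunit that binds gephyrin, had 0 in both lists.

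Genes of the metabolic side of gephyrin were also mostly unmarked. Of 11 genes of molybdenum cofactor synthesis and molybdenum enzymes, 2 (18.2%, 5.14 to 47.7) had a peak in WT and 3 (27.3%, 9.75 to 56.6) in KO. The shares of all coding genes were 20.6% and 23.4%. GPHN, chosen for its KO peaks, is among the counted genes. MOCOS, the cofactor sulfurase, had 7 peaks in each list over 6411 and 8601 bp. AOX1, aldehyde oxidase, had 0 and 2 peaks (1018 bp). MOCS1, MOCS2 and MOCS3, which act before gephyrin in the pathway, had 0 in both lists. Of 9 genes of inhibitory transmitter synthesis and transport, 3 (33.3%, 12.1 to 64.6) had peaks in both lists. KO had more bases in each, as in 78.7% of all genes with a peak in both lists. They were SLC6A11, a GABA transporter (5 and 5 peaks, 6289 and 7629 bp), ABAT, the enzyme that breaks down GABA (2 and 3, 1552 and 2495 bp), and SLC6A13, a GABA transporter (1 and 3, 1248 and 2086 bp). These lists hold too few marked genes to set their shares apart from those of all coding genes.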

How the data were processed

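Peaks were read from the 2 lists that the authors deposited, 1 for each genotype. Per the submitters' processing notes, HISAT2 and the build hg38 were used. Not given in the sources used here were the peak caller, its settings, its use of input and how replicates were merged. Per the file headers, each peak has a fold enrichment, a ratio to a background that the headers do not define, and a q-value, an adjusted p of the peak within its own list. Values depend on how deeply each list was called. Positions were read as counted from 1. The planned test over ChIP libraries could not be run, because the lists hold no value per library.

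From these lists, counts, covered bases and overlaps (at least 1 bp) were computed with Python 3.11.15, pandas 2.3.3, numpy 2.4.6 and scipy 1.17.1, and figures were drawn with matplotlib 3.10.9. The scripts were tested on simulated data. Intervals are Wilson 95% intervals. Gene-wide counts use the authors' gene names, and RefSeq (GRCh38.p14) gave gene bodies and promoter windows. Background shares use chromosomes 1 to 22, X and Y.

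Genes named were GPHN, flank genes with a peak, up to 4 members of each related list by largest difference in bases (1 such gene is not reported here), the 5 nearest long genes and the reference genes PCDH9, CNTNAP2, GPC5 and DSCAM; GLRB, MOCS1, MOCS2, MOCS3 and the genes of the peak-free stretch were added as background. Peaks named were the 3 highest and 3 widest of each list in the gene, the 3 widest found in 1 list only and those nearest the gene's ends, with the loci of largest difference added after their values were seen. The members, lists and rules were chosen with earlier results of these data known. Alternatives changed the fold, q, list length, overlap, joining of peaks, gene extent and flank length.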

Additional observations from a re-analysis of the deposited data

How the results depend on the processing

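Of 67 alternative values, 54 kept the direction and stayed near the reported ones, which means within the counting interval for peak ratios and shares, within 1.5 times for covered bases and counts of listed genes, and within the range over the 5 genes for the nearest long genes. Among the 54 are alternatives by assigned name and by peak midpoint, which selected the same 44 WT and 74 KO peaks and so returned the reported values. The GPHN peak ratio of 1.68 became 2.60 with only the peaks whose q was no higher than the median of both lists (whole lists 2.04), 1.18 at or above the median fold (whole lists 1.08), 1.23 and 1.34 in lists of equal length by q and by fold (whole lists 0.998 and 0.999), and 1.27 with peaks closer than 1 kb joined (whole lists 1.36). Apart from the first, the counting intervals of these values include 1, as does that without the stretch from 50 to 250 kb (1.41, 0.766 to 2.60). None of these intervals is a test, since the gene was chosen by its KO-only peaks. The share of WT peaks with a KO peak, 84.1%, was 57.1% at the median fold, 70.5% in lists of equal length by fold, 43.2% where an overlap needed 50% of each peak, and 95.5% with a KO peak within 1 kb. The share of KO peaks with a WT peak, 44.6%, was 25.6% at the median q, 25.7% with 50% overlap and 68.9% within 1 kb. The lower flank went from 1.17 to 0.833 at the median fold and to 0.792 and 0.917 in lists of equal length by q and by fold, so its direction rests on the lists as deposited. With flanks of 500 kb the upper flank had 1 WT and 4 KO peaks, a ratio of 4, and a base ratio of 7.04 (308 and 2167 bp). The RefSeq gene body and the gene without its stretch from 50 to 250 kb were chosen after seeing the data. The cause of these shifts was not tested. No paired analysis was possible because the lists carry no value per library, and for the same reason no replicate could be left out. The depth of the libraries is unknown, so a place without a peak is not shown to lack the mark.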

Other observations

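RefSeq places noncoding genes inside GPHN that the peaks also touched. LOC124903332, a long noncoding RNA at chr14:66722706-66755034, held 5 WT and 6 KO peaks over 1869 and 2933 bp, or 5.78% and 9.07% of its length. LOC105370538, at chr14:67072688-67189364, held 1 WT peak of 420 bp and 3 KO peaks of 2243 bp. A histone peak has no strand, so peaks over either gene cannot be told apart from peaks of GPHN.

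The other long stretches without a peak in either list were chr14:65534030-65713812 (179783 bp, inside FUT8), chr14:67545270-67708469 (163200 bp), which holds PIGH, ARG2, VTI1B and RDH11, and chr14:67712225-67828404 (116180 bp), which holds ZFYVE26. RN7SL706P, a pseudogene of the signal recognition particle RNA in the upper flank, lay wholly under a KO peak at chr14:68149597-68150029 (fold 3.51), with the nearest WT peak 678 bp away.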
